A study of Homo sapiens with 4 samples.

Results

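Chromatin accessibility was examined at the loci of 8 neurotrophic receptor genes in SK-N-BE(2)C, an established human neuroblastoma cell line with amplified MYCN. The genes were ALK, RET, GFRA1, GFRA2, GFRA3, NTRK2, NTRK3 and NGFR, 8 of 19962 protein-coding genes annotated on the chromosomes used. A peak was assigned to a gene when it overlapped the gene body or the 50 kb on either side of it, which includes the 3 kb on either side of each annotated transcription start site (TSS). Of 47610 peaks in control cells and 42682 peaks in sgSNHG1 cells, 73 and 51 met this rule. ATAC-seq marks open chromatin, since the Tn5 transposase inserts adapters preferentially where DNA is accessible. Control cells (genotype wildtype, 2 replicates) carried a non-targeting control gRNA, and sgSNHG1 cells (genotype SNHG1 knockout, 2 replicates) carried SNHG1 gRNA. SNHG1 produces a spliced RNA that codes for no protein and carries small nucleolar RNAs in its introns. The labels give 1 protocol for both groups, with transfection of Cas9 constructs and surrogate reporters, puromycin selection and outgrowth from sorted single cells. By the study's account the control was a single clone, and SNHG1 was depleted in the sgSNHG1 clones but not fully knocked out. Which of these clones were used for ATAC-seq was not given in the sources used here, so an effect of the guides and a difference between clones cannot be told apart.

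The receptors fall into 3 families. ALK is a receptor tyrosine kinase that is activated by mutation or amplification in part of neuroblastomas and binds the ligands ALKAL1 and ALKAL2. RET is a receptor tyrosine kinase that is reached by ligands of the GDNF family through a co-receptor, and GFRA1, GFRA2 and GFRA3 are such co-receptors, preferring GDNF, neurturin and artemin. NTRK2 and NTRK3 are the kinases that bind BDNF and neurotrophin 3, and NGFR is the low-affinity p75 receptor that binds all neurotrophins. These receptors guide the survival and differentiation of sympathetic neurons, the lineage from which neuroblastoma arises.

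Replicates were combined by the authors before peaks were called, so each locus has 1 peak list per group, no spread between replicates and no test between groups. The height of a peak is its fold enrichment, which compares the fragments at its summit with the background around it. The fragment number at the summit (pileup) was solved from the deposited values for every peak at these loci. The scaled pileup is this number divided by the genome-wide background, 2.20 fragments for control and 1.72 for sgSNHG1. The median pileup over all peaks was 24 and 20 fragments. Peaks of the lists that overlapped were shared, and mutual best overlaps formed pairs. Log2 ratios are sgSNHG1 over control, and their errors (SE) come from the pileups and cover counting error only. Ratios past 0.5 or -0.5 on the log2 scale are counted as a rule of size. As a check of the cell type, 7 of 8 sympathetic markers had a promoter peak in both lists, beside 12709 of all 19962 protein-coding genes. TH, the rate-limiting enzyme of catecholamine synthesis, had one in neither list. The blood markers PTPRC and CD3E, the liver marker ALB and the epithelial marker KRT5 had none. The epithelial marker EPCAM had a promoter peak in both lists, at 8.86-fold enrichment in control and 11.3 in sgSNHG1.

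The sequences at 6 summits on which the results turn are given first, as the plus strand of GRCh38, 201 bases centred on the summit. They are the ALK promoter, the ALK peak with the lowest log2 ratio, the ALK peak with the highest fold enrichment, the RET peak with the highest control fold enrichment outside promoters of other genes, the NTRK2 peak called in sgSNHG1 cells alone, and the highest NGFR peak. Capitals mark matches on either strand to the 7 motifs searched. The motif AGATAA is bound by GATA factors, which help to define sympathetic neurons. The E-boxes CATCTG, and likewise in another variant CAGCTG, are bound by helix-loop-helix proteins such as HAND2. The AP-1 motif was TGANTCA, the site of FOS and JUN dimers. The cyclic AMP response element (CRE) was TGACGTCA, bound by the CREB family of proteins. Homeodomain factors were represented by the letters TAATTA. Factors of the SP/KLF family were represented by GGGCGG, a motif frequent in CpG-rich promoters. No overlap between motifs was removed.
ALK promoter, chr2:29921684-29921884: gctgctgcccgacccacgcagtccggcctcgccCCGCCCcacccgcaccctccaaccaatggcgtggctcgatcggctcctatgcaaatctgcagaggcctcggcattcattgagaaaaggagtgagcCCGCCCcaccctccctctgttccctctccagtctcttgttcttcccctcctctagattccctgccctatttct
ALK intron 12, chr2:29249800-29250000: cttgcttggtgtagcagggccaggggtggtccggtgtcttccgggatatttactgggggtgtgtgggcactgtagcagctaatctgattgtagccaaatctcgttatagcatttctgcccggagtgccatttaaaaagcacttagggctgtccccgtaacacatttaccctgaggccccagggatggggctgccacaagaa
ALK intron 3, chr2:29650742-29650942: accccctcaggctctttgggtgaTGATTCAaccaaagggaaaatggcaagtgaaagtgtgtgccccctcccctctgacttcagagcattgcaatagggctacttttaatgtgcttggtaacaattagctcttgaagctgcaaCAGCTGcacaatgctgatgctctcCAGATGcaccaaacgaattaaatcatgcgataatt
RET intron 4, chr10:43105451-43105651: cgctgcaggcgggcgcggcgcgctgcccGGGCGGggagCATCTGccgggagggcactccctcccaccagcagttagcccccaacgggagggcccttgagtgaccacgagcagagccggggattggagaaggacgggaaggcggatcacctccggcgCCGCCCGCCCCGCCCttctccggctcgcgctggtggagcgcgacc
NTRK2 intron 17, chr9:84996061-84996261: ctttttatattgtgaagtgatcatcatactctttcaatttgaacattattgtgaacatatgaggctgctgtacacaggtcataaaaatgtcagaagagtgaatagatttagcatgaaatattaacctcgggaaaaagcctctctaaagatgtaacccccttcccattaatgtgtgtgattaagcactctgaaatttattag
NGFR downstream, chr17:49515359-49515559: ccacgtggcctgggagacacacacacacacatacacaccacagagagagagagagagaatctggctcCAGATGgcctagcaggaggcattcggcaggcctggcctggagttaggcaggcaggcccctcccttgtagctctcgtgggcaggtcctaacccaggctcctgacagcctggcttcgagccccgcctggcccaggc
The ALK promoter held 2 SP/KLF matches, and the highest ALK peak held 1 AP-1 match and 1 match to each E-box. The RET window held 5 matches, of which 4 were SP/KLF and 3 of these lay in 1 run, and its GC content was 75.1%. The ALK intron 12 window and the NTRK2 window held no match, with GC contents of 53.7% and 33.8%.

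The number of peaks at the 8 loci was lower in sgSNHG1 cells, 51 against 73, a ratio of 0.699. The whole sgSNHG1 list was also shorter, with 42682 peaks against 47610 in control. In the 5 Mb on either side of each gene, outside the locus, this ratio lay between 0.794 (NTRK2) and 0.959 (GFRA2). A lower number of peaks was therefore found around these loci as well, while their joint ratio of 0.699 lay below that of each surrounding region. By locus, GFRA2 (1.00) and NGFR (1.17) lay above their own regions (0.959 and 0.881). The difference in size was not tested. Peaks covered 25.02 kb in control and 15.44 kb in sgSNHG1. ALK had 28 control and 17 sgSNHG1 peaks, GFRA1 had 8 and 3, NTRK2 had 7 and 4, and NTRK3 had 3 and 1. RET (9 and 8), GFRA2 (8 and 8), GFRA3 (4 and 3) and NGFR (6 and 7) differed by no more than 1 peak. ALK accounted for 11 of the 22 fewer peaks. Other protein-coding genes with a TSS in these windows were CLIP4 (ALK), CSGALNACT2 (RET), CCDC172 (GFRA1), and CDC23 and CDC25C (GFRA3). Introns held 41 of the 73 control summits and 27 of the 51 sgSNHG1 summits.

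**Figure D1:**
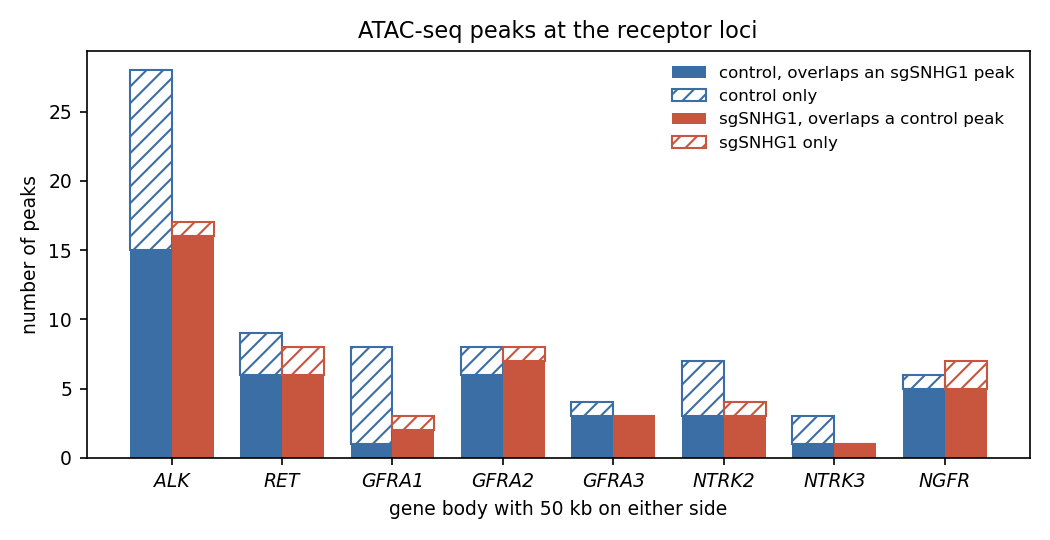
Number of ATAC-seq peaks at each receptor locus (gene body with 50 kb on either side) in the pooled control and sgSNHG1 lists, split into peaks that overlapped a peak of the other list and peaks that did not. The bar of ALK is the tallest in both lists, with 28 and 17 peaks.

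Control peaks without a counterpart were mostly low. Of the 73 control peaks, 40 were shared (54.8%, 95% Wilson interval 43.4 to 65.7) and 33 were in the control list alone, where 33.3% of all control peaks had no counterpart. Of the 51 sgSNHG1 peaks, 43 were shared (84.3%, 72.0 to 91.8) and 8 were in the sgSNHG1 list alone, against 21.8% of all sgSNHG1 peaks. The upper bound of the shared control share lay just under the 66.7% of all control peaks. The excess of control peaks without a counterpart therefore stood out from the genome by little more than counting error, and peaks of 1 locus are not independent of each other. The 33 control peaks had a median -log10 q of 4.58 (2.63 to 15.5), while the shared control peaks had a median of 11.7. The pileup expected in the sgSNHG1 list at an equal scaled level was compared with the lowest pileup called there at a like background. For 30 of the 33 it was less than 2 counting errors above that lowest pileup, at most 1.97 (GFRA1 intron 9). By this rule the absence of a single such peak does not separate a loss from counting error, and the 30 sites were not tested together. The remaining 3 control peaks were an intron 4 and an intron 1 peak of ALK and an intron 16 peak of NTRK2, described with their genes. Of the 8 sgSNHG1 peaks, 5 were within 2 counting errors in the same sense, and the other 3 lay at RET, NTRK2 and GFRA2.

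Peaks were also split by their distance from TSSs. Away from the TSSs of protein-coding genes by more than 3 kb, 27 of 58 control peaks at the receptor loci had no counterpart (46.6%, 34.3 to 59.2), beside 40.0% of all such control peaks. Only 3 of 37 such sgSNHG1 peaks had none (8.11%, 2.80 to 21.3), beside 29.1% of all such sgSNHG1 peaks. Within 3 kb of a protein-coding TSS, 6 of 15 control peaks at the receptor loci had no counterpart (40.0%, 19.8 to 64.3), beside 22.0% of all such control peaks. Of the sgSNHG1 peaks there, 5 of 14 had none (35.7%, 16.3 to 61.2), beside 10.3% of all such sgSNHG1 peaks. In the sgSNHG1 list the share at the receptor loci thus lay below that of the genome away from TSSs and above it near them. The split by distance was made after the lists had been seen.

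Where both lists held a peak, its height differed little between them at most sites. Over the 40 pairs the median log2 ratio of fold enrichment was -0.04 (95% interval -0.17 to 0.04), beside -0.05 over all 31663 pairs, and 25 pairs were lower and 15 higher. At or below -0.5 lay 2 pairs, at ALK and NTRK3, where 9.06% of all pairs did, and at or above 0.5 lay 2 pairs, at ALK and GFRA2, where 5.37% did. By scaled pileup the median was -0.09 (-0.23 to 0.07), beside -0.01 over all pairs. On this scale 4 pairs lay at or below -0.5 (11.8% of all pairs) and 6 at or above 0.5 (11.2%). These counts are near the shares in the genome. Peaks were narrower in sgSNHG1 cells in 34 of 40 pairs, and 79.8% of all pairs were narrower. The control fold enrichment was at least 9 in 7 pairs, of which 6 were lower in sgSNHG1. Pairs chosen as high in 1 list tend to be lower in the other, and 68.7% of the 6536 pairs of this height in the genome were lower.

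**Figure D2:**
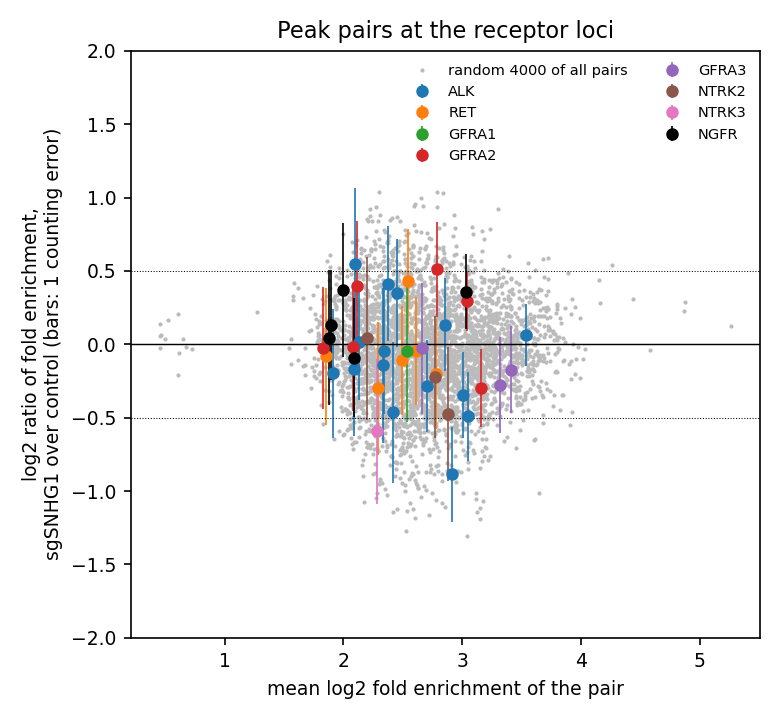
Log2 of the sgSNHG1 over the control fold enrichment for the 40 peak pairs at the receptor loci against the mean log2 fold enrichment of each pair, with bars of 1 counting error, over 4000 random pairs of the genome in grey. Dotted lines mark 0.5 and -0.5, and the lowest receptor pair is the ALK intron 12 peak at -0.89.

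ALK (chr2:29192774-29921586, minus strand, ENSG00000171094.18) is 728.8 kb long and held more peaks than any other of these genes. All 28 control peaks overlapped the gene body, which is 3.84 per 100 kb, and the 17 sgSNHG1 peaks are 2.33 per 100 kb. Among the 1497 protein-coding genes of at least 200 kb the median was 1.35 per 100 kb in control (quartiles 0.609 and 2.45) and 1.16 in sgSNHG1, and 27 of them had more control peaks than ALK. The median local background at the ALK control peaks was 2.22 times the genome-wide one, beside 1.93 over control peaks of all 8 loci. Its part in the number of peaks was not tested. Of the ALK control peaks, 27 had their summit in an intron. The ratio of sgSNHG1 to control peaks in the gene body was 0.607, while the median of the 79 such genes with at least 20 control peaks was 0.742. At or below the ratio of ALK lay 17 of these 79 genes.

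The ALK promoter was open in both lists. Its peak (chr2:29921250-29921851 in control, summit 198 bp before the TSS) reached a fold enrichment of 7.17 for control and 5.89 for sgSNHG1 with pileups of 55 and 35, a log2 ratio of -0.28 (SE 0.31). Smaller peaks within 3 kb of internal starts were an intron 19 pair, with fold enrichments of 4.03 and 3.52, and an intron 16 peak in control alone, with 4.44 and a pileup of 29. The only ALK peak in the sgSNHG1 list alone was in exon 1, 1027 bp after the TSS, with fold enrichment 3.32 and pileup 19.

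By control fold enrichment, the 4 highest ALK peaks lay far inside the gene, in introns 12, 11 and 3, and differed in how they compared between the lists. The highest (chr2:29650557-29651235, intron 3, 270.7 kb from the TSS) had 11.4 in control and 11.9 in sgSNHG1 with pileups of 112 and 79, a log2 ratio of 0.06 (SE 0.21). The intron 12 peak (chr2:29249633-29250187, 671.7 kb from the TSS) had 10.2 and 5.53 with pileups of 66 and 28, a log2 ratio of -0.89 (SE 0.33). It was the only pair at these loci beyond 2 counting errors by fold enrichment, and 2.67% of all pairs were. At or below its ratio lay 302 of all 31663 pairs (0.954%).

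The other high ALK peaks differed less by fold enrichment than by scaled pileup. The intron 11 peak (chr2:29262459-29263270) had 9.07 and 7.15, log2 ratios of -0.34 by fold enrichment and -0.74 by scaled pileup (SE 0.29). The other high intron 3 peak (chr2:29613606-29614291) had 9.82 and 6.99, with ratios of -0.49 and -0.68 (SE 0.30). Together with the intron 12 peak they were the 3 pairs at these loci beyond 2 counting errors by scaled pileup, where 7.60% of all pairs were. In the opposite direction, a pair in intron 11 had 4.50 and 5.99 (log2 ratio 0.41, SE 0.39), and 2 in intron 3 had 3.54 and 5.17 (0.55, SE 0.52) and 4.85 and 6.18 (0.35, SE 0.37). These differences were within 2 counting errors. The intron 4 peak of 1097 bp in control (fold enrichment 6.92) was met by 2 sgSNHG1 peaks, the higher with 7.59.

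Over its 15 pairs ALK had a median log2 ratio of -0.14 (-0.34 to 0.13) by fold enrichment and -0.20 (-0.48 to 0.11) by scaled pileup. In the 5 Mb on either side, outside the locus, the median scaled pileup ratio of 162 pairs was -0.02 (-0.09 to 0.05). Of the 13 ALK control peaks without a counterpart, those that stood more than 2 counting errors above the lowest callable pileup were in intron 4 (fold enrichment 4.98, pileup 30) and intron 1 (6.04, pileup 27).

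**Figure D3:**
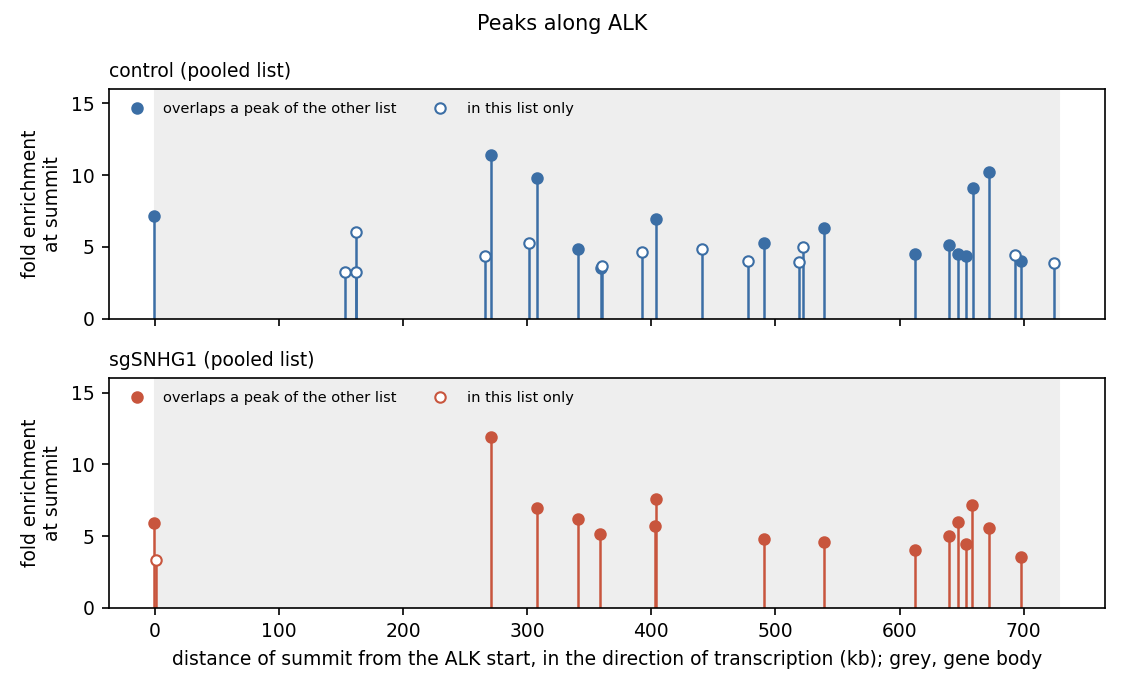
Fold enrichment of each ATAC-seq peak along ALK against the distance of its summit from the TSS in kb, for the control and sgSNHG1 lists, with open points for peaks without a counterpart. The highest peak, 270.7 kb from the TSS, reached 11.4 in control and 11.9 in sgSNHG1, and the intron 12 peak, 671.7 kb from the TSS, 10.2 and 5.53.

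RET (chr10:43077064-43130351, plus strand, ENSG00000165731.21) had 6 peak pairs, none past 0.5 on either scale. Its highest promoter peak (chr10:43105364-43105697) lay in intron 4, 798 bp after the start of a shorter transcript, with fold enrichments of 6.21 in control and 6.02 in sgSNHG1, pileups of 32 and 29 and a log2 ratio of -0.05 (SE 0.37). The main start was less open, with a peak 469 bp before it of 3.73 and 3.52. A peak on exon 1 was in control alone (3.40, pileup 22). Intron 1 held 2 pairs of like height, with 5.03 and 6.78 (log2 ratio 0.43, SE 0.36) and 5.84 and 5.41 (-0.11, SE 0.37). In intron 1, 477 bp before another internal start, a peak was called in sgSNHG1 alone with fold enrichment 5.16 and pileup 22, 2.68 counting errors above the lowest pileup called in control at a like background. The highest control peak in the window, with 7.38 and 6.42, was at the promoter of the neighbour CSGALNACT2. In the sgSNHG1 list the intron 1 peak with 6.78 was the highest.

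The GDNF family co-receptors differed among themselves. GFRA1 (chr10:116056925-116276803, minus strand, ENSG00000151892.16) had 1 pair, past the end of the gene and 257.4 kb from the canonical TSS, with 5.89 for control and 5.72 for sgSNHG1, a log2 ratio of -0.04 (SE 0.48). Its promoter peak, 283 bp before the canonical TSS, was in control alone, with fold enrichment 4.35 and pileup 20, and was 1.16 counting errors above the lowest pileup called in sgSNHG1. Of its other control peaks, the highest was in intron 9 with fold enrichment 5.18 and pileup 27, 1.97 counting errors above that level. A single intron 5 peak with a pileup of 11 was in sgSNHG1 alone.

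GFRA3 (chr5:138252380-138274621, minus strand, ENSG00000146013.11) had no peak over its gene body in either list. A peak 1069 bp before its TSS had fold enrichments of 6.38 in control and 6.27 in sgSNHG1 with pileups of 25 and 18, a log2 ratio of -0.03 (SE 0.45). An intergenic peak downstream (chr5:138230250-138230635) had 11.0 and 9.07 with pileups of 49 and 32 (-0.28, SE 0.33). The promoter peak of CDC23, a neighbour that encodes a subunit of the anaphase-promoting complex, had 11.3 and 10.0 (-0.17, SE 0.30). All 3 pairs were lower in sgSNHG1, each by less than 1 counting error.

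GFRA2 (ENSG00000168546.11, minus strand) had the same number of peaks in both lists, and by scaled pileup 5 of its 6 pairs were higher in sgSNHG1. Its canonical promoter peak had low fold enrichments of 3.58 and 3.52 with pileups of 27 and 22, a log2 ratio of -0.02 (SE 0.41). An intron 3 peak was past the size rule, with 5.78 in control and 8.24 in sgSNHG1 and pileups of 36 and 44, a log2 ratio of 0.51 (SE 0.32). A peak 6.18 kb before the canonical TSS had 3.77 and 4.98 (0.40, SE 0.44). The deepest peak, 49.8 kb upstream, had 7.43 and 9.10 with pileups of 102 and 95 (0.29, SE 0.21). In the other direction, the peak downstream of the gene had 9.90 and 8.06 (-0.30, SE 0.27). None of these was beyond 2 counting errors. A peak at an upstream start was in control alone (3.36, pileup 16). An upstream peak in sgSNHG1 alone had fold enrichment 3.53 and pileup 33, 2.51 counting errors above the lowest pileup called in control at a like background.

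NTRK2 (chr9:84668375-85095751, plus strand, ENSG00000148053.18), the BDNF receptor, had a promoter peak in both lists. This peak (chr9:84667984-84668738) had fold enrichments of 7.39 in control and 6.33 in sgSNHG1 with pileups of 28 and 21, a log2 ratio of -0.22 (SE 0.42) and -0.06 by scaled pileup. A peak 408.4 kb into the gene had 8.70 and 6.25 with pileups of 27 and 16 (-0.48, SE 0.46). The sites called in 1 list alone lay inside the gene. In intron 16 a control peak (chr9:84954046-84954364) had a fold enrichment of 8.06, a pileup of 25 and a -log10 q of 15.5, the highest of the control peaks without a counterpart, and was 2.38 counting errors above the lowest pileup called in sgSNHG1. In intron 17 an sgSNHG1 peak (chr9:84996029-84996377), 202 bp before an internal start, had 5.95 and a pileup of 18, 2.51 counting errors above the lowest pileup called in control.

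NTRK3 (chr15:87859751-88256791, minus strand, ENSG00000140538.17), the neurotrophin 3 receptor, had the fewest peaks. Its promoter peak, 936 bp inside the canonical start, was in control alone and low, with fold enrichment 3.70 and pileup 15. Its single pair, 9.83 kb inside the gene (chr15:88246741-88247031), had 5.98 in control and 3.96 in sgSNHG1 with pileups of 24 and 13, a log2 ratio of -0.59 (SE 0.50). This difference was within 2 counting errors.

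NGFR (chr17:49495293-49515008, plus strand, ENSG00000064300.9) was the only member with more peaks in sgSNHG1 than in control. Its promoter peaks lay at different places. The control peak was 232 bp before the TSS, with fold enrichment 4.25 and pileup 26. The sgSNHG1 peaks were 250 bp and 2436 bp after it, with 2.99 and 3.83 and pileups of 16 and 21. All 3 were within 2 counting errors of the lowest pileup called in the other list. The highest peak, just past the end of the gene (chr17:49515365-49515764), had 7.23 in control and 9.27 in sgSNHG1 with pileups of 65 and 61 (log2 ratio 0.36, SE 0.26). The other 4 pairs had fold enrichments between 3.50 and 4.53 in both lists.

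Set side by side, the promoters of the receptors had lower fold enrichments than those of most genes with a promoter peak. Fold enrichment also depends on the background around a peak, and ranks among all genes by scaled pileup were not computed. By control scaled pileup ALK (24.9) lay above NTRK2 (12.7), and GFRA2 (12.2) above GFRA3 (11.3), unlike the order by fold enrichment. The promoter value of a gene is the highest fold enrichment among its peaks within 3 kb of any of its TSSs. The median over genes with a promoter peak was 7.55 in control and 7.30 in sgSNHG1, and the 8 members all lay below it in control, from the 2.04 percentile (GFRA2) to the 47.3 percentile (NTRK2). In control the order from the top was NTRK2 (7.39), ALK (7.17), GFRA3 (6.38), RET (6.21), GFRA1 (4.35), NGFR (4.25), NTRK3 (3.70) and GFRA2 (3.58). Without replicates, neighbours in this order cannot be separated. A promoter peak was present in both lists for 6 of the 8 genes, beside 12709 of all 19962 protein-coding genes. GFRA1 and NTRK3 had one in control alone, where 6.07% of protein-coding genes did. No member had one in sgSNHG1 alone, where 1.98% of genes did. The median log2 ratio of the 6 genes was -0.10, beside -0.07 over the 12709 genes with a value in both lists, and by scaled pileup it was -0.0029, beside -0.04. The NGFR value compares peaks at different places, and without it the medians of the other 5 genes were -0.05 by fold enrichment and -0.06 by scaled pileup. Of the 6 genes, 0 passed the size rule downward, where 7.33% of genes did, and 0 upward, where 2.01% did. Both counts have no test behind them.

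**Figure D4:**
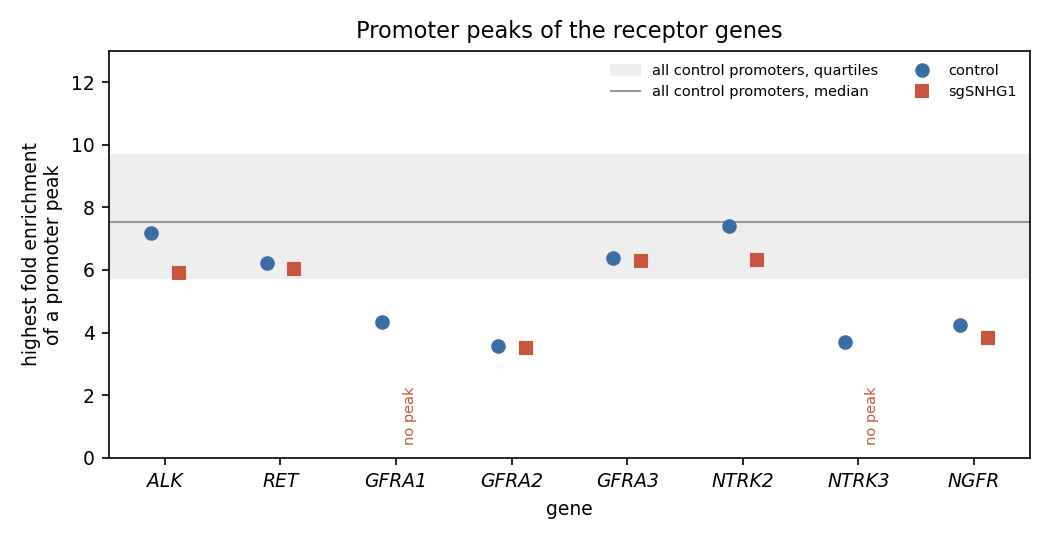
Promoter fold enrichment of the 8 receptor genes in the pooled control and sgSNHG1 lists, with the median (line) and quartiles (band) of control values over all genes with a promoter peak. All 8 lie below the control median of 7.55, and GFRA1 and NTRK3 have a control value alone.

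Peak pairs in the surrounding chromatin had like scaled pileups in both lists. In the 5 Mb on either side of each gene the median scaled pileup ratio lay between -0.07 (NTRK3) and -0.0039 (NTRK2), over 101 to 226 pairs. The interval for NTRK3 was -0.13 to -0.0039. Pairs hold only sites called in both lists, and the number of peaks in these regions was lower in sgSNHG1 around each gene, as given above. The protein-coding gene nearest to each receptor over promoter value and peak number in both lists was PRKAG2 for ALK, CNTN3 for RET, IGFBP5 for GFRA2, KCTD20 for GFRA3, DGKH for NTRK2 and PLAU for NGFR, by Euclidean distance on 4 log2 values. The distances were between 0.0201 and 0.181. Each likeness rests on 2 lists.

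Receptor peaks differed from all peaks beyond the counting interval in the share with CATCTG, in the sgSNHG1 list alone, and with GGGCGG, in both lists. Within 100 bp of the summit CATCTG was found in 21 of 73 control peaks (28.8%, 19.7 to 40.0) and 20 of 51 sgSNHG1 peaks (39.2%, 27.0 to 52.9), beside 22.9% and 23.6% of all peaks. GGGCGG was found in 13.7% (7.61 to 23.4) and 9.80% (4.26 to 21.0), beside 25.2% and 26.7%. AP-1 matches were in 1 control and 5 sgSNHG1 peaks (1.37% and 9.80%), beside 7.11% and 8.15%, and the intervals of the receptor shares overlap. The GATA motif was in 12.3% of control and 11.8% of sgSNHG1 peaks, beside 11.2% and 11.2% of all peaks. The other E-box was in 24.7% and 25.5%, beside 19.0% and 20.8%. The homeodomain motif was in 1.37% and 3.92%, beside 4.21% and 4.54%. The CRE was in 0 of 73 and 0 of 51 peaks, with upper Wilson bounds of 5.00% and 7.00%, beside 0.899% and 0.998% of all peaks. Of the receptor peaks 58 of 73 in control lay farther than 3 kb from any protein-coding TSS, against 29877 of 47610 in the whole list, and the part of this in the motif shares was not tested. Peaks of 1 locus are not independent, and a match describes the letters alone.

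The ligands and the signalling genes downstream were examined as lists at their promoters. Of 12 ligands, 6 had a promoter peak in both lists, 1 in sgSNHG1 alone and 5 in neither. The last were GDNF, NTF3, NTF4 and both ALK ligands, ALKAL1 and ALKAL2. Of all 19962 protein-coding genes, 12709 had one in both lists, 6.07% in control alone and 1.98% in sgSNHG1 alone. ARTN, the GFRA3 ligand, had a low peak in sgSNHG1 alone (3.17, pileup 14). Of the 6 other receptors, SORT1, a partner of NGFR, had 14.0 and 13.4, NCAM1 had 7.18 and 6.34, and 4 had no promoter peak.

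Of 22 adaptors, 19 had a promoter peak in both lists, 14 of them lower in sgSNHG1, with a median log2 ratio of -0.13, beside 60.4% of all genes lower and a median of -0.07. By fold enrichment 1 of 19, the Shc family adaptor SHC4, was past -0.5, where 7.33% of all genes were. It had 11.7 and 6.99 with pileups of 44 and 18 (-0.75, SE 0.40). By scaled pileup SHC4 (-0.93) and GAB1 (-0.64) were past -0.5. SHC2 was the 1 of 22 with a peak in control alone (5.31, pileup 16), where 6.07% of all genes were. Of 13 feedback regulators and targets of the receptor pathway, 12 had promoter peaks in both. Their median was -0.04, and none was past the size rule by fold enrichment. By scaled pileup SPRY1 (-1.01, SE 0.49, pileups of 31 and 12) and CBLB (-0.61, SE 0.23, pileups of 121 and 62) were past -0.5. The share of all genes past -0.5 on this scale is not given here. The remaining gene of the 13 was ETV1, an ETS family transcription factor downstream of receptor kinases. Its promoter held 2 control peaks, with fold enrichments of 7.39 and 6.85, pileups of 42 and 38 and -log10 q of 22.2 and 19.0, and no sgSNHG1 peak. At equal scaled pileup 32.8 and 29.6 fragments would have been present in the sgSNHG1 list. In the body and flanks of ETV1, 4 other control peaks were shared, and 2 low ones with pileups of 12 and 15 were in control alone. Of the 6624 genes with a control promoter peak of at least this -log10 q, 13 had no sgSNHG1 promoter peak. The ETV1 values were looked up after the list result had been seen.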

How the data were processed

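ATAC-seq was analysed in 4 samples of SK-N-BE(2)C, 2 control and 2 sgSNHG1, grouped by the labels. According to the study's methods and processing notes, the authors trimmed reads with cutadapt, aligned them to GRCh38 with BWA, removed duplicates and unsuitable reads (Picard, GATK), shifted read ends for the Tn5 cut with deepTools, combined replicates and called peaks with MACS2. Combining replicates hides peaks that rest on 1 library. The MACS2 threshold was not given in the sources used here. The smallest -log10 q was 2.00 in control and 2.01 in sgSNHG1.

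For each peak the authors deposited positions, a score, the fold enrichment (a ratio with a pseudocount of 1), and -log10 p and q values. The deposited score and p column were not used as results, except that pileup and local background were solved from fold enrichment and -log10 p, within a tolerance of 0.001. This procedure was tested on simulated peaks, and the overlap counting on the control list against a random part of itself. Solutions were found for 47576 control and 42653 sgSNHG1 peaks, including all peaks at the receptor loci. PCR fragments without molecular identifiers are not independent molecules, so intervals (95%, Wilson for shares, order statistics for medians) cover counting error only.

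Shared peaks overlapped by at least 1 bp. TSSs came from GENCODE 44. Receptor genes were described in full. Genes of the pathway lists were named when past 0.5 by fold enrichment or called in 1 list. In a list with no such gene the 2 with the highest control fold enrichment were named. Adaptors and feedback genes past 0.5 by scaled pileup were named after their values were seen. A result of the ligand list is not reported here. The ligands with no promoter peak were named after their values were seen. The members and lists were chosen with earlier results of these data known. The alternatives were thresholds on q, a 50% overlap, a 10 kb flank, other TSS sets and the scaled pileup. Scripts ran in Python 3.11.15 with numpy 2.4.6, pandas 2.3.3, scipy 1.17.1 and matplotlib 3.10.9.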

Additional observations from a re-analysis of the deposited data

How the results depend on the processing

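No paired analysis was possible because the peak lists analysed here hold 1 value per group from combined replicates, and for the same reason no replicate was left out of them. Values per replicate were not analysed here. Of 29 alternative values, 23 stayed within the limits set for a change and 6 moved. At a -log10 q of 10 or more, 30 control and 20 sgSNHG1 peaks were left at the receptor loci. When an overlap had to cover 50% of both peaks, the shared share fell to 42.5% of control and 60.8% of sgSNHG1 peaks, beside 48.2% and 53.8% of all peaks. With a -log10 q of at least 5, the shared control share was 73.1% of 52 peaks, beside 77.1% of all control peaks of that strength. The median promoter log2 ratio was -0.0029 by scaled pileup, against -0.10 by fold enrichment. It was -0.15 with the TSS of the gene record or a -log10 q of at least 5, and -0.05 without NGFR, an alternative chosen after seeing the data. The lower number of sgSNHG1 peaks kept its direction under all 4 alternatives for it. Pileups of 11 to 33 at peaks called in 1 list limit what their absence from the other list can show.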
